A study of Saccharomyces cerevisiae with 8 samples.

Results

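The genes described here encode the proteins of the yeast mitochondrial ribosome, and were taken by their standard symbols. They are the genes named MRPL, MRPS or RSM with a number, 11 genes of the MRP series, and IMG1 and IMG2. The rule found 67 genes among the 6600 open reading frames of the files, and all 67 were among the 5879 genes kept by the filter on low counts. The RefSeq annotation of build R64 places 39 of them in the large (54S) subunit and 27 in the small (37S) subunit. It names RSM22 a tRNA methyltransferase and gives it no subunit.

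The mitochondrial ribosome translates the few messages of the mitochondrial genome, most of which encode subunits of the respiratory chain and the ATP synthase. Nearly all of its proteins are encoded in the nucleus, made in the cytosol and imported. In yeast the RNA-binding protein Puf3 is known to bind many of their messages downstream of the stop codon and to control their decay and translation. Xrn1 is the main cytoplasmic exonuclease that degrades messages from the 5′ end once the cap is gone.

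The samples were Saccharomyces cerevisiae cultures in which the capping enzyme subunit Ceg1 could be drawn out of the nucleus with rapamycin (anchor-away). Both strains were MATalpha and carried tor1-1, fpr1::NAT, RPL13AxFKB12::TRP and CEG1-FRB::HIS, so the control groups carry these alleles too. The second strain, ceg1-AA/xrn1D, also had XRN1 disrupted with KAN. Cells grew in YPD at 30 °C and received DMSO or rapamycin at 1 µg/mL for 45 min. There were 2 libraries each of ceg1-AA with DMSO, ceg1-AA with rapamycin and ceg1-AA/xrn1D with rapamycin. There was 1 library of ceg1-AA/xrn1D with DMSO, as replicate 2 is not used here. The labels of ceg1-AA/xrn1D replicate 2 write XRN3 in the genotype where those of replicate 1 write XRN1.

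Library totals were 935651 to 1618638 counts in ceg1-AA and 2990340 to 3385761 in ceg1-AA/xrn1D. For XRN1 the files list 794 and 632 counts with DMSO and 384 and 338 with rapamycin in ceg1-AA, and 0 in all 3 ceg1-AA/xrn1D libraries. Of the 28 mitochondrially encoded open reading frames in the files, 20 had at least 10 counts in every ceg1-AA library. Of these 20, 16 had at most 3 counts in every ceg1-AA/xrn1D library. Mitochondrially encoded frames took 1.13% to 3.37% of the counts in ceg1-AA and 0.199% to 0.281% in ceg1-AA/xrn1D. The loss was not uniform, as OLI1, VAR1, SCEI and Q0182 kept counts in ceg1-AA/xrn1D. Their log2 fold changes between strains were -1.29, -0.61, 1.22 and 2.76 under rapamycin and -1.05, -0.48, 0.84 and 3.33 under DMSO. The absence of XRN1 RNA and this change of mitochondrial RNA cannot be told apart in any comparison of the strains below.

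The letters TGTANATA, the Puf3 motif written as DNA, were searched on the coding strand in the 200 bases after each stop codon of the R64 genome. They were present in 66 of the 67 mitoribosomal genes (98.5%) and in 844 of 6001 nuclear coding genes (14.1%). RSM22, the member with no subunit in the annotation, was the 1 gene without a match. On the opposite strand of the same window (TATNTACA) the share was 17.9% of members and 13.2% of coding genes. In bases 201 to 400 after the stop codon TGTANATA was found in 4.48% of members and 3.88% of coding genes. The high share in the mitoribosomal genes was thus found on 1 strand and close to the stop codon. A match is a run of letters and is not evidence that the protein binds there.

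The sites of members that recur in the results are shown 5′ to 3′ on the gene's strand, with the motif in capitals. They come from the R64 reference genome, with their coordinates on it.
MRPL39 (chrXIII:251210-251233, minus strand): atttatccTGTAAATAagtaatgg
MRPL6 (chrVIII:392538-392561, minus strand): gaatacctTGTAAATAtcctatga
MRPL25 (chrVII:637011-637034, minus strand): tctaatcaTGTAAATAattttgtg
MRP17 (chrXI:437041-437064, minus strand): caaacacaTGTAAATAcatacata
MRP4 (chrVIII:100432-100455, plus strand): cctaaactTGTACATAtgcccata
MRPS12 (chrXIV:694272-694295, minus strand): caacctttTGTAAATAgcaatgac
IMG1 (chrIII:209866-209889, minus strand): ccatctccTGTATATAagaaaaat
MRPL4 (chrXII:1015470-1015493, plus strand): ctctctccTGTAAATAtatatata
MRPL37 (chrII:741641-741664, plus strand): ggtatcctTGTAAATAaatatgtg
MRPS16, nearer site (chrXVI:528884-528907, minus strand): gtatatgtTGTATATAtgttttac
MRPS16, farther site (chrXVI:528843-528866, minus strand): atcagactTGTAAATAatacatct
The first 7 of these lines belong to genes that were higher in ceg1-AA/xrn1D than in ceg1-AA in at least 1 treatment, and the other 4 to the 3 genes called lower in at least 1 treatment. MRPL4 was called lower under rapamycin and stood higher, uncalled, under DMSO. Genes of both directions thus held the motif.

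The 66 genes held 80 sites, and 13 genes held more than 1. The first base of a site lay a median of 54 bases after the stop codon, with a range of 8 to 165. Within 100 bases of the stop codon lay 73 of the 80 sites (91.3%), against 72.2% of the 843 sites in 778 other genes. The variable base, the fifth of the motif, was A in 45.0%, T in 32.5%, C in 21.3% and G in 1.25% of member sites. In the other genes' sites it was A in 26.6%, T in 51.1%, C in 15.9% and G in 6.41%. A C stood 2 bases before the motif in 53 of the 80 member sites (66.3%) and in 24.1% of the other sites. That position was looked at after the sites had been seen, and the shares are a description.

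**Figure D1:**
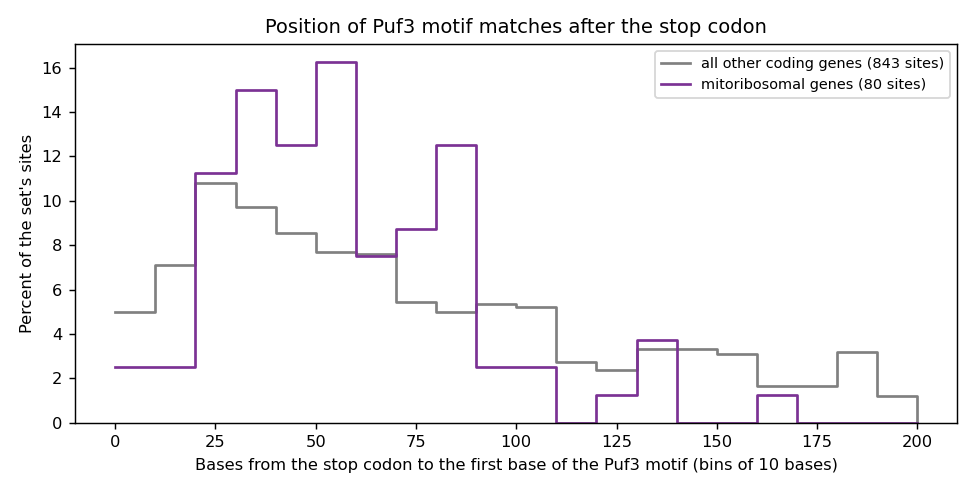
Position of TGTANATA matches after the stop codon in bins of 10 bases (x axis, bases; y axis, percent of the set's sites). The 80 sites of mitoribosomal genes (purple) lie mostly under 100 bases, with 91.3% there against 72.2% of the 843 sites of other coding genes (grey).

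Motifs in the 250 bases before the start codon, searched on both strands, were not more frequent in these genes. CCAAT, the letters bound by the Hap2/3/4/5 complex, was present in 19 members (28.4%) and in 35.4% of coding genes. GATGAG, the core of a motif of ribosome biogenesis genes, was present in 10 members (14.9%) and in 17% of coding genes. AAAATTTT, the core of the rRNA processing element, was present in 1 member, MRPS16 (1.49%), and in 8.65% of coding genes.

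The members lie on 14 chromosomes, and 38 have a neighbour on the other strand next upstream. MRPL44 alone has an intron in the annotation. Their coding lengths run from 213 to 1887 bases with a median of 699, against 1182 for all genes tested. MRP4, MRPL19 and MRPL51 each overlap another annotated gene, so their counts are uncertain.

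Per length, the messages were of moderate and fairly even abundance. The mean deposited TPM (a library-relative level that divides the count by length) had a median of 116 over the 67 genes and of 67.5 over all genes tested. For 57 of the 67 genes the mean was between 50 and 200 TPM. MRPS12, the small subunit protein related to the bacterial decoding-centre protein, had the highest mean at 406 TPM. The highest large subunit message was MRPL37 at 262 TPM. The lowest were MRP20, a large subunit protein, at 13.4 TPM and MRP4, a small subunit protein, at 18.1 TPM. MRP20 rested on 2 to 49 counts per library, so its value is loose. Over all members a library held 2 to 886 counts per gene.

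Together the 67 genes took a larger share of the counts in the ceg1-AA/xrn1D libraries. The share was 0.326% and 0.292% in the ceg1-AA DMSO libraries and 0.468% and 0.476% in the ceg1-AA rapamycin libraries. In ceg1-AA/xrn1D it was 0.623% with DMSO and 0.726% and 0.649% with rapamycin. The widest exact binomial 95% interval of these shares was 0.463% to 0.491%, for the second ceg1-AA rapamycin library, and covers counting error only. The shares of the strains did not overlap. Part of this was common to all genes: the median TPM of all genes tested was 39.4 and 40.3 with DMSO and 68.0 and 68.5 with rapamycin in ceg1-AA. In ceg1-AA/xrn1D it was 75.3 with DMSO and 83.2 and 78.0 with rapamycin. The members' median TPM was 64.1 and 54.6 with DMSO and 95.8 and 91.6 with rapamycin in ceg1-AA. In ceg1-AA/xrn1D it was 136 with DMSO and 178 and 145 with rapamycin. In bulk RNA, fewer cells with a message and less of it per cell cannot be told apart.

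**Figure D2:**
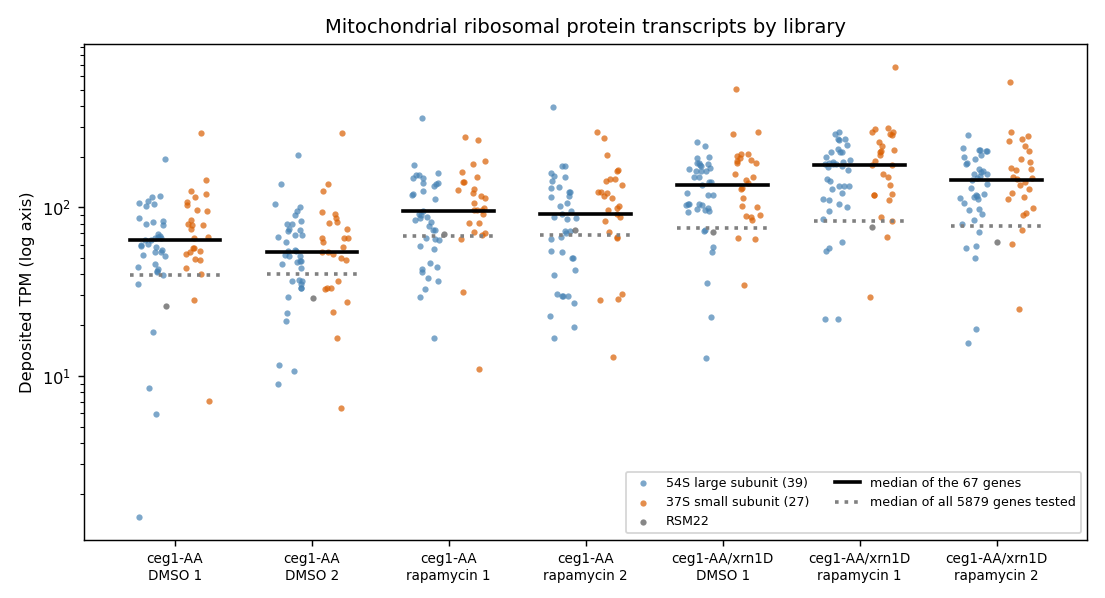
Deposited TPM (log axis) of each of the 67 genes in each of the 7 libraries, by subunit, with the median of the 67 genes (solid line) and of all 5879 genes tested (dotted line). The members' median is 54.6 to 95.8 TPM in the ceg1-AA libraries and 136 to 178 TPM in the ceg1-AA/xrn1D libraries, and the median of all genes also moves.

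Under rapamycin, 35 mitoribosomal genes rose and 3 fell in ceg1-AA/xrn1D relative to ceg1-AA, by edgeR with an adjusted p threshold of 0.05 over all genes tested. Among all 5879 genes, 21.2% were called higher and 22.5% lower. The median log2 fold change was 0.56 over the 67 members and 0.02 over all genes tested, with a member range of -0.93 to 1.94. Both subunits took part: 21 of 39 large subunit genes rose (median 0.52) and 14 of 27 small subunit genes rose (median 0.57). Of the genes that rose, 12 were at least 2-fold higher. Over all genes tested, called or not, a 2-fold rise lay between the 90th percentile (log2 fold change 0.976) and the 91st (1.04). In 48 members both ceg1-AA/xrn1D libraries lay above both ceg1-AA libraries, and in 8 they lay below (background 38.5% and 36.8%). With each of these libraries left out in turn, fewer members and fewer of all genes were called. The member median stayed between 0.53 and 0.59, and that of all genes between -0.001 and 0.020.

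MRPL39, a large subunit protein related to bacterial L33 proteins, had the largest difference. It stood at 5.71 and 5.96 CPM (the count relative to the library total, scaled by TMM) in the ceg1-AA rapamycin libraries and at 22.4 and 22.7 in the ceg1-AA/xrn1D rapamycin libraries. The groups were far apart, but the ceg1-AA values came from 6 counts each. The log2 fold change was 1.94 ± 0.35 (SE, 2 libraries against 2), with an edgeR adjusted p of 0.00129. MRPL6, another large subunit protein, stood at 39.0 and 54.7 CPM in ceg1-AA and at 141 and 152 CPM in ceg1-AA/xrn1D. Its log2 fold change was 1.65 ± 0.18 (adjusted p = 8.48e-05). MRPL25, a large subunit protein, stood at 18.1 and 11.9 CPM in ceg1-AA and at 39.0 and 39.9 CPM in ceg1-AA/xrn1D, a log2 fold change of 1.39 ± 0.26.

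MRP2, a small subunit protein, and MRPL44, the large subunit gene with an intron, completed the 5 largest rises with log2 fold changes of 1.44 ± 0.32 and 1.37 ± 0.32. In both genes the second ceg1-AA rapamycin library was the lower one, at 8.94 CPM for MRP2 and 7.95 CPM for MRPL44. Without that library neither gene was called, and their log2 fold changes were 0.98 and 1.02.

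The 3 genes that fell were MRPL4, MRPS16 and MRPL37. MRPS16, a small subunit protein, stood at 49.5 and 54.7 CPM in the ceg1-AA rapamycin libraries and at 33.1 and 28.8 in those of ceg1-AA/xrn1D. Its log2 fold change was -0.75 ± 0.20 (adjusted p = 0.0106). MRPL37, a large subunit protein, stood at 88.6 and 112 CPM against 66.2 and 59.97 CPM, a log2 fold change of -0.67 ± 0.17 (adjusted p = 0.00881). MRPS16 and MRPL37 lost their calls without rapamycin replicate 2 of either strain. MRPL4, a large subunit protein, stood at 33.3 and 27.8 CPM against 16.5 and 15.6 CPM, a log2 fold change of -0.93 ± 0.29 (adjusted p = 0.0240). MRPL4 was not called when any 1 of these 4 libraries was left out.

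Under DMSO, 24 mitoribosomal genes rose and 1 fell in ceg1-AA/xrn1D relative to ceg1-AA. This fit compared 1 library with 2, with the lone library assumed to vary like the other groups. Among all genes tested 19.2% were called higher and 20% lower. The member median was 0.50 and that of all genes 0.04, with a member range of -0.77 to 1.58. Large subunit genes (15 of 39 rose, median 0.52) and small subunit genes (9 of 27 rose, median 0.50) again stood close together. In 56 members the ceg1-AA/xrn1D library lay above both ceg1-AA libraries and in 4 below both (background 44.1% and 39.5%). DESeq2 called 10 members higher and 0 lower, against 584 and 1034 of all 5879 genes tested. Library totals alone gave 57 higher, 0 lower and a median of 1.05, with the median of all genes at 0.58. Limma on TPM gave 54 higher and 0 lower. Over all genes library totals alone gave 2681 higher and 436 lower, and limma gave 3271 and 277.

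MRP4, the small subunit protein related to bacterial S2 proteins, was at 12.3 and 11.1 CPM in the ceg1-AA DMSO libraries and at 35.3 CPM in that of ceg1-AA/xrn1D. Its log2 fold change was 1.58 ± 0.30 (adjusted p = 0.00258), the largest of the members under DMSO, and it overlaps another gene. MRP17, a small subunit protein, was at 20.5 and 25.3 CPM against 64.9 CPM, a log2 fold change of 1.51 ± 0.23 (adjusted p = 0.000916). The ceg1-AA/xrn1D library was more than 2-fold above the higher ceg1-AA library in both genes. MRPL25, RSM7 and MRP49 followed, with log2 fold changes of 1.35 ± 0.31, 1.33 ± 0.19 and 1.26 ± 0.24. MRPS16 was the gene that fell, at 49.2 and 42.6 CPM against 27.0 CPM, with a log2 fold change of -0.77 ± 0.24 (adjusted p = 0.0267). Without ceg1-AA DMSO replicate 1, MRPS16 was not called at a log2 fold change of -0.66.

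The 2 strain comparisons share no library, and 21 members were called higher in both, which is 60% of those called under rapamycin and 87.5% of those called under DMSO. Of all 5879 genes tested 485 were called higher in both, which made up 38.9% and 43.0% of the respective lists. The lists held 52.2% and 35.8% of members but 21.2% and 19.2% of all genes, so the overlap percentages have unlike bases. The 21 genes were MRP1, MRP4, MRP17, MRP49, MRPL1, MRPL6, MRPL7, MRPL9, MRPL13, MRPL15, MRPL19, MRPL23, MRPL25, MRPL35, MRPL38, MRPL49, MRPS17, MRPS35, RSM7, RSM25 and RSM26. Over the 67 members the log2 fold changes of the strain comparisons had a Pearson correlation of 0.55 and a Spearman correlation of 0.57, against 0.69 and 0.46 over all genes. These are correlations across genes, and the genes share libraries and depth. The set of all genes includes XRN1 and the mitochondrially encoded frames, which reached log2 fold changes of -15.5 under rapamycin and -15.8 under DMSO. A Pearson correlation weighs such values heavily.

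Over both treatments, 36 members were higher in all 3 libraries of ceg1-AA/xrn1D than in any of the 4 of ceg1-AA, 21 of the large and 15 of the small subunit. MRPL37 and MRPS16 were lower in each. Among all genes tested these patterns were found in 18.3% and 16.9%. The ceg1-AA/xrn1D libraries were also the deeper ones. Each library was also thinned to 935651 counts, an alternative chosen after the data were seen. Then 29 members rose and 2 fell under rapamycin (median 0.59), and 17 rose and 0 fell under DMSO (median 0.45). Of all 5879 genes tested, 1119 rose and 1198 fell under rapamycin, and 838 rose and 989 fell under DMSO.

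**Figure D3:**
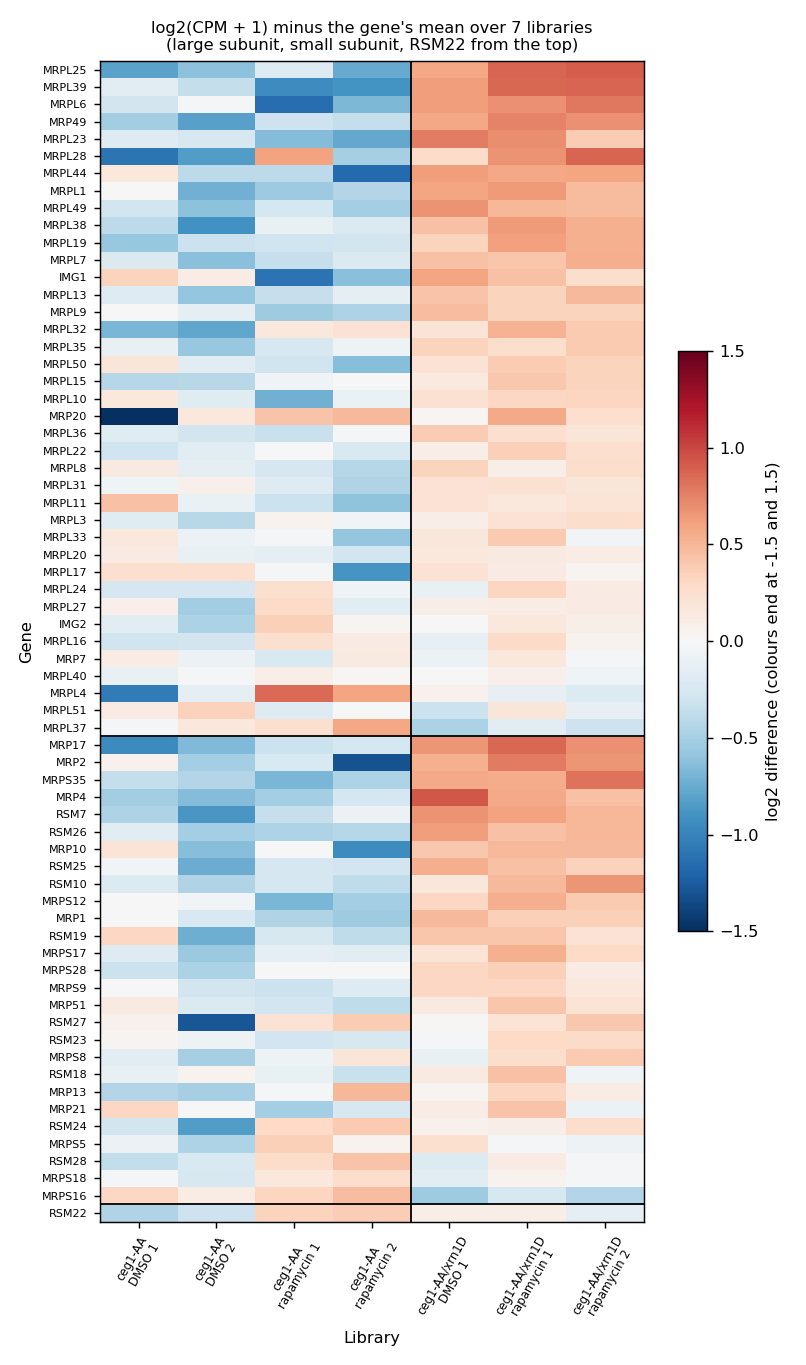
log2(CPM + 1) of each gene minus its mean over the 7 libraries (colour scale), with libraries as columns and genes as rows, split into large subunit, small subunit and RSM22. Red prevails in the 3 ceg1-AA/xrn1D columns, where 36 of the 67 genes exceed every ceg1-AA library, and MRPL37 and MRPS16 show the opposite.

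Genes outside the symbol rule that hold the motif were read beside the members as a description. They include 11 mitoribosomal proteins with other symbols and 12 mitochondrial aminoacyl-tRNA synthetases, which are described further below. The 746 other genes tested that have TGTANATA had a median log2 fold change between strains of 0.14 under rapamycin and 0.14 under DMSO. The 4673 without it stood at 0.00 and 0.02. Of the 746, the 196 with a C 2 bases before the motif stood at 0.34 and 0.42, and the 550 without it at 0.07 and 0.04. Under rapamycin 40.3% of the 196 were called higher and 12.8% lower, against 22.4% and 21.1% of the 550. The same split among the members was less uniform. The 53 members with the C stood at 0.52 and 0.51, and the 13 with a site but no C at 0.57 and 0.33. Members with more than 1 site (13 genes) stood at 0.48 and 0.58, and those with 1 site (53 genes) at 0.56 and 0.50.

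**Figure D4:**
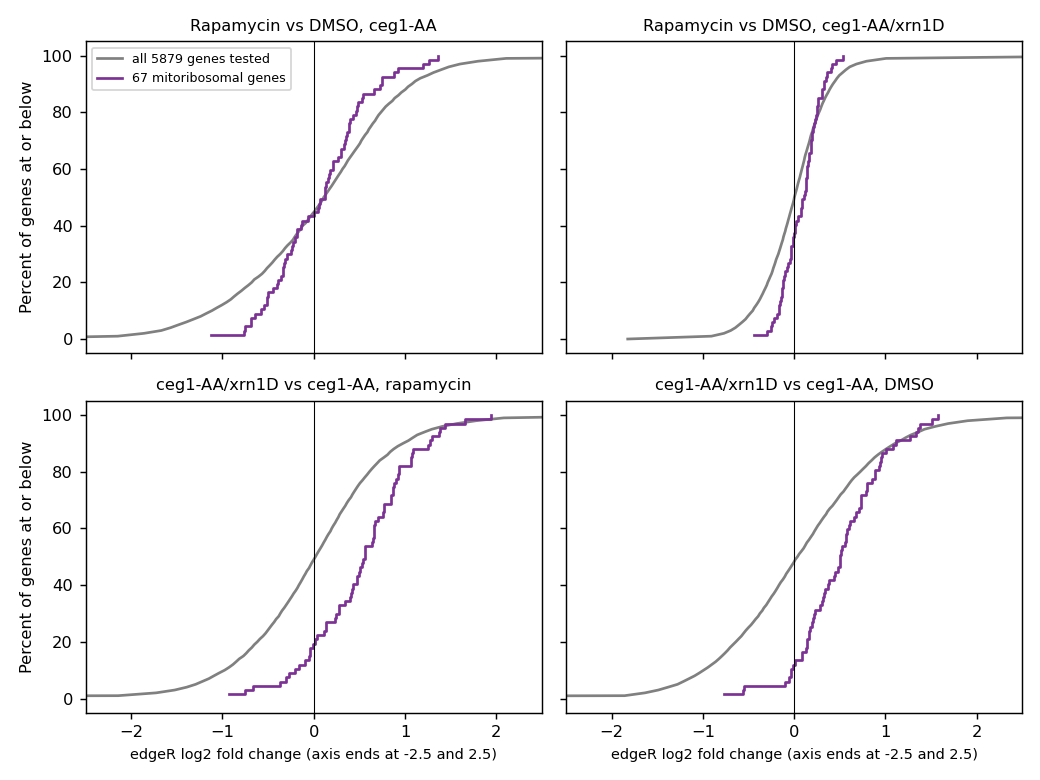
Cumulative distribution of edgeR log2 fold changes (x axis; y axis, percent of genes at or below) for the 67 mitoribosomal genes (purple) and all 5879 genes tested (grey) in 4 comparisons. In the strain comparisons the purple line lies to the right, with medians of 0.56 and 0.50 against 0.02 and 0.04, and in the rapamycin comparisons the medians are 0.12 and 0.11 against 0.11 and 0.00.

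With TMM scaling, 7 of the genes rose and 4 fell with rapamycin relative to DMSO in ceg1-AA. Among all genes tested 24.3% were called higher and 22.8% lower. The member median was 0.12 and that of all genes 0.11. The response of all genes varied with level. Of 5 equal groups of genes by TPM in the ceg1-AA/xrn1D libraries, the top group had a median of -0.69, and its 23 members 0.12. The next group stood at -0.06 and its 29 members at -0.14. The lower groups stood at 0.24, 0.33 and 0.47, and their 8, 4 and 3 members at 0.24, -0.52 and 1.19. The calls depended on the scaling, in members and in all genes alike. With library totals alone 35 members were higher and 0 lower, against 2909 and 649 of all 5879 genes tested. Limma on TPM gave 42 and 1 members, against 3225 and 576 of all genes. Scaling to the mitochondrially encoded frames gave 0 and 16 members, against 82 and 1903 of all genes. The member median was 0.64 with library totals alone, where the median of all genes was 0.62, and -0.56 with scaling to the mitochondrially encoded frames, where that of all genes was -0.55. Without ceg1-AA DMSO replicate 2 the member median was -0.05 and that of all genes 0.13, and without replicate 1 they were 0.24 and 0.12. The number of members called lower moved with the library left out, as it did over all genes. In 28 members both rapamycin libraries lay above both DMSO libraries and in 18 below (background 40.8% and 32.6%).

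MRPL4 had the largest rise with rapamycin, from 8.20 and 16.2 CPM to 33.3 and 27.8 CPM, a log2 fold change of 1.36 ± 0.36 (adjusted p = 0.0105). The groups did not overlap, but MRPL4 had 10 and 16 counts with DMSO, and it lost its call without replicate 1 of either ceg1-AA group. MRPL32, a large subunit protein matured in yeast by the m-AAA protease of the inner membrane, rose from 44.3 and 41.6 CPM to 80.0 and 83.5 CPM. Its log2 fold change was 0.93 ± 0.18 (adjusted p = 0.00194). RSM24, a small subunit protein, rose from 68.8 and 46.6 CPM to 104 and 110 CPM, by 0.87 ± 0.20 on the log2 scale. RSM22, the methyltransferase gene with no Puf3 motif, rose from 70.5 and 78.0 CPM to 123 and 125 CPM, by 0.74 ± 0.17. MRP13, a small subunit protein, rose by 0.73 ± 0.20 and was not called without ceg1-AA rapamycin replicate 2. RSM28 (0.66) and MRPL16 (0.48) were the other genes that rose.

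IMG1, a large subunit protein named for its need in keeping the mitochondrial genome, had the largest fall, from 37.7 and 32.4 CPM to 13.3 and 18.9 CPM. Its log2 fold change was -1.13 ± 0.28 (adjusted p = 0.00812). MRPL6 fell from 72.1 and 86.1 CPM to 39.0 and 54.7 CPM, a log2 fold change of -0.75 ± 0.20 (adjusted p = 0.0121). MRPS12 fell from 170 and 166 CPM to 106 and 119 CPM, a log2 fold change of -0.58 ± 0.15 (adjusted p = 0.00968). IMG1, MRPL6 and MRPS12 were not called without ceg1-AA rapamycin replicate 1 or with library totals alone. MRPL9, a large subunit protein, stood at -0.44 ± 0.16 (adjusted p = 0.0428) and turned to 0.07 with library totals alone and 0.14 with limma on TPM. It was also not called without ceg1-AA DMSO replicate 1 or without either ceg1-AA rapamycin library.

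In ceg1-AA/xrn1D no mitoribosomal gene was called between rapamycin and DMSO by edgeR or limma. By edgeR 1 of the 67 members had an unadjusted p under 0.05, against 875 of all 5879 genes tested. DESeq2 called 0 of the 31 members to which it gave an adjusted p. Here 2 libraries were compared with the lone DMSO library, which was assumed to vary like the other groups. Of all genes tested, 0.034% were called higher and 0.034% lower. The member median was 0.11 and that of all genes 0.00. The highest values were 0.54 ± 0.35 for MRPL28, a large subunit protein, and 0.45 ± 0.21 for MRPS8, a small subunit protein. The lowest were -0.44 ± 0.23 for MRP4 and -0.29 ± 0.20 for MRPS5, both small subunit proteins. In 36 members both rapamycin libraries lay above the DMSO library and in 18 below (background 39.3% and 39.2%).

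The rapamycin responses of the strains were compared directly in the same fit, with the lone library treated in the same way. The response was called more positive in ceg1-AA/xrn1D for MRPL6 and MRPS12 and more negative for MRPL4 and RSM22. Among all genes tested 11.9% and 9.66% were called in these directions. The member median of the difference was 0.02 and that of all genes -0.10. None of the 4 calls held with a replicate block. With ceg1-AA rapamycin replicate 1, ceg1-AA/xrn1D rapamycin replicate 1 or ceg1-AA/xrn1D rapamycin replicate 2 left out, the counts were 0 and 0, 0 and 1, and 0 and 0. With ceg1-AA DMSO replicate 1 left out 4 members were called more negative. With ceg1-AA DMSO replicate 2 or ceg1-AA rapamycin replicate 2 left out, 1 member was called more positive in each case.

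**Figure D5:**
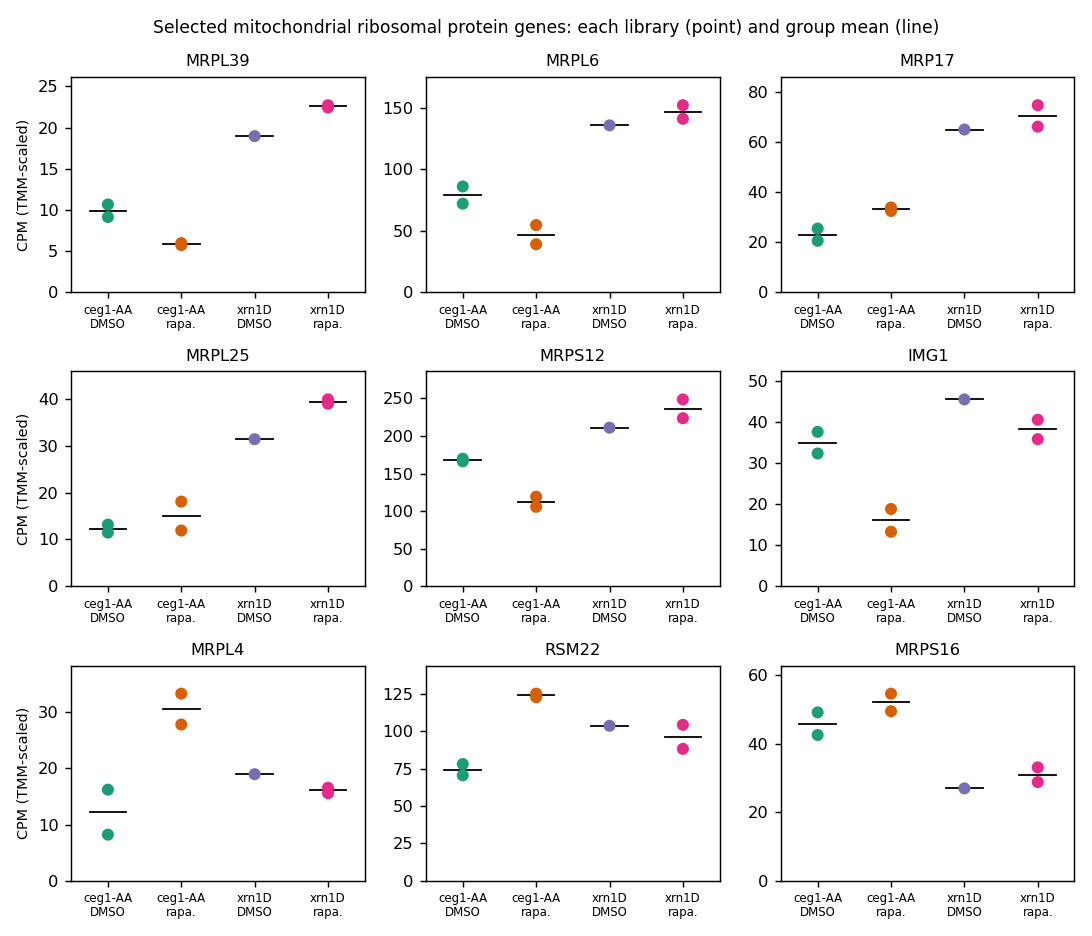
CPM (y axis, starting at 0) of 9 mitoribosomal genes in each library (points) with the group mean (line); xrn1D stands for ceg1-AA/xrn1D, which has 1 DMSO library. MRPL39, MRPL6, MRP17 and MRPL25 are higher in every ceg1-AA/xrn1D library, IMG1 and MRPS12 are lowest in ceg1-AA with rapamycin, MRPL4 and RSM22 are highest there, and MRPS16 is lower in every ceg1-AA/xrn1D library.

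The other genes of mitochondrial translation were described from lists, by counts and medians beside those of all genes given above. Of 11 mitoribosomal proteins with other symbols, all 11 of which hold TGTANATA, 5 rose and 0 fell in ceg1-AA/xrn1D under rapamycin (median 0.72), and 3 rose under DMSO (median 0.46). PET123, a small subunit protein, had a log2 fold change of 1.45 ± 0.16 under rapamycin. Of 12 mitochondrial aminoacyl-tRNA synthetases, which load tRNAs and all hold the motif, 8 rose and 0 fell in each strain comparison (medians 0.70 and 0.61). SLM5, the asparagine enzyme, stood at 1.87 ± 0.23 under DMSO. Of 9 translation factors, 7 of which hold the motif, 4 rose under rapamycin and 3 under DMSO, and 0 fell (medians 0.28 and 0.11).

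Of 12 activators that bind or serve single mitochondrial messages, 8 hold the motif. Between strains 6 rose and 2 fell under rapamycin (median 0.36), and 8 rose and 0 fell under DMSO (median 0.78). CBP3, needed for cytochrome b synthesis, stood at 1.80 ± 0.16 and 1.74 ± 0.17. With rapamycin in ceg1-AA, 6 activators rose and 0 fell, with PET111, which acts on the COX2 message, at 1.46 ± 0.17. In that comparison 24.3% of all genes rose and 22.8% fell. Of the 12 synthetases 5 rose and 0 fell, and of the 10 genes listed next 4 rose and 1 fell. Of the 9 translation factors 1 rose and 1 fell, and of the 11 other mitoribosomal proteins 2 rose and 2 fell. A list of 10 genes held assembly and rRNA modification genes, RPO41 and MTF1 of mitochondrial transcription, and PUS4, a tRNA-modifying enzyme. PUS4 was among those that fell, at -0.76 ± 0.18 under rapamycin and -1.25 ± 0.20 under DMSO. Of the 10 genes, 7 hold the motif. Between strains 1 rose and 2 fell under rapamycin (median -0.10), and 4 rose and 1 fell under DMSO (median 0.45). PUF3 itself was higher in ceg1-AA/xrn1D, with log2 fold changes of 0.46 ± 0.16 under rapamycin (adjusted p = 0.0327) and 0.76 ± 0.19 under DMSO (adjusted p = 0.00906). HAP4, the activating subunit of the CCAAT-binding complex, rose with rapamycin in ceg1-AA by 1.20 ± 0.20 and stood between strains at 1.13 ± 0.21 under DMSO and at -0.41 ± 0.17 under rapamycin (adjusted p = 0.0675), where it was not called. HAP3, of the same complex, was called lower between strains under rapamycin, at -0.77 ± 0.27 (adjusted p = 0.0407). These 3 belong to a list of 6 regulators, 0 of which hold the motif. Between strains 1 of the 6 rose and 1 fell under rapamycin (median -0.15), and the median under DMSO was 0.63. The others, SFP1, HAP2 and HAP5, stood at 0.23 ± 0.14, -0.04 ± 0.52 and -0.26 ± 0.33 under rapamycin, and at 0.61 ± 0.17, 0.65 ± 0.63 and 0.12 ± 0.40 under DMSO.

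VAR1, the mitoribosomal protein encoded in the mitochondrial genome itself, was at 77.0 and 52.7 CPM with DMSO and at 90.5 and 59.6 CPM with rapamycin in ceg1-AA. In ceg1-AA/xrn1D it was at 46.8 CPM with DMSO and at 56.4 and 42.0 CPM with rapamycin. VAR1 was not among the frames that were nearly absent in ceg1-AA/xrn1D. Its log2 fold change between strains was -0.61 ± 0.25 under rapamycin (adjusted p = 0.0669) and -0.48 ± 0.30 under DMSO (adjusted p = 0.225), and neither was called.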

How the data were processed

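RNA was sequenced from 7 yeast libraries in 4 groups, grouped by their titles. Each library's table lists 6600 open reading frames with the whole-number counts that the authors deposited, not normalized, and TPM values that the authors derived from count, length and a bias factor; recomputing them matched within 0.00028%. Per the submitters' processing notes, FastQC 0.11.5, HISAT2 2.1.1, SAMtools 1.15.1 and DESeq2 were used, with build R64 (sacCer3). The counting program and its use of strand are not given in the sources used here, so counts of overlapping genes are uncertain.

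Members were matched by symbol in the RefSeq R64 table, which holds 5917 of the 6600 identifiers. The test was edgeR's quasi-likelihood test (edgeR 4.0.16, R 4.3.3): filterByExpr kept 5879 genes, library sizes were scaled by TMM, 1 coefficient per group was fitted to all 7 libraries, and p-values were adjusted by Benjamini-Hochberg over all genes tested at a threshold of 0.05. The group with 1 library has no spread of its own and was assumed to vary like the others. The labels do not say that replicates were separate cultures, so p-values measure the spread between these samples, which may be technical. The script was tested on simulated data. Of the MATalpha markers MF(ALPHA)1 stood at 377.6 to 815 CPM and STE3 at 157 to 379 CPM. MF(ALPHA)2 stood at 49.2 and 40.5 CPM in ceg1-AA with DMSO and at 3.70 to 9.52 CPM in the other libraries. All 3 were called lower with rapamycin in ceg1-AA. Between strains MF(ALPHA)1 and STE3 were called higher under rapamycin, and MF(ALPHA)2 was called lower under DMSO. Of the MATa markers MFA1 had 0 counts and MFA2 at most 1 in every library, while STE2 had 11 to 36 counts in ceg1-AA and 191 to 211 in ceg1-AA/xrn1D and was called higher there under both treatments.

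Named genes are, per comparison, the 5 largest rises and the 5 largest falls past the threshold with the same sign in every pair of libraries, or the 2 most extreme members where a direction has none. The extremes of TPM, members overlapping another gene, VAR1, XRN1 and up to 2 genes per pathway list were added. RSM28 and MRPL16, the 6 listed regulators, and the members called in both strain comparisons were named after their values were seen. The same holds for RPO41, MTF1, PUS4, OLI1, SCEI and Q0182. The members and lists were chosen with earlier results of these data known. Alternatives were RLE size factors, library totals alone, no filter, a replicate block, DESeq2 1.42.0, limma 3.58.1 on log2(TPM + 1), scaling to mitochondrially encoded frames, only the libraries compared, each library left out, and thinned counts.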

Additional observations from a re-analysis of the deposited data

Results flagged for a closer look

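In 4 mitoribosomal genes the response to rapamycin differed between the strains by a test of the difference itself in edgeR: 2 in each direction, against 11.9% and 9.66% of all genes tested. All 4 rest on the lone ceg1-AA/xrn1D DMSO library, which was assumed to vary like the other groups. For MRPL4 the response in ceg1-AA/xrn1D minus that in ceg1-AA was -1.60 on the log2 scale (adjusted p = 0.0384), from a response of 1.36 in ceg1-AA and -0.24 in ceg1-AA/xrn1D. For RSM22 the difference was -0.85 (adjusted p = 0.0288), from 0.74 and -0.11. For MRPL6 the difference was 0.86 (adjusted p = 0.0478), from -0.75 and 0.11. For MRPS12 the difference was 0.74 (adjusted p = 0.0375), from -0.58 and 0.16. With a replicate block the counts were 0 and 0. DESeq2 called none of MRPL6, MRPS12 and RSM22 and gave no adjusted p for MRPL4. Leaving out rapamycin replicate 1 of ceg1-AA, or rapamycin replicate 2 of ceg1-AA/xrn1D, also gave 0 and 0, and leaving out rapamycin replicate 1 of ceg1-AA/xrn1D gave 0 and 1. In all 4 genes the larger of the 2 responses was that of ceg1-AA.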

How the results depend on the processing

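The call counts depended on the scaling. For rapamycin against DMSO in ceg1-AA, library totals alone gave 35 members higher, 0 lower and a median of 0.64. Limma on TPM gave 42, 1 and 0.70, and scaling to mitochondrially encoded frames gave 0, 16 and -0.56. Over all 5879 genes tested these settings gave 2909 higher and 649 lower, 3225 and 576, and 82 and 1903. For the strains under DMSO, library totals alone gave 57, 0 and 1.05, limma gave 54, 0 and 1.19, and DESeq2 gave 10 and 0. Over all genes these gave 2681 and 436, 3271 and 277, and 584 and 1034. Thinned counts gave 0 members lower and RLE factors 3 lower, against 989 and 1284 of all genes. For the strains under rapamycin DESeq2 gave 1 member lower, against 1021 of all genes. For the difference of the responses, library totals alone gave 0, 11 and -0.43, and limma 0, 8 and -0.42. Over all genes these gave 316 and 1776, and 207 and 1572. DESeq2 gave 0 and 0 of the 57 members to which it gave an adjusted p, and thinned counts gave 1 and 0. Over all genes these gave 647 and 230, and 551 and 380. Library totals alone moved the median of all genes to 0.62 for rapamycin in ceg1-AA, to 0.58 for the strains under DMSO and to -0.55 for the difference of the responses. The members' median minus that of all genes was 0.01, 0.54 and 0.47 for rapamycin in ceg1-AA and for the strains under rapamycin and DMSO. With library totals alone it was also 0.01, 0.54 and 0.47. A change of library scaling moves all genes nearly alike, so this difference could hardly change and the equal values test nothing. With limma on TPM the difference was 0.44 for the strains under rapamycin and 0.32 under DMSO.

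With each library left out in turn, rapamycin in ceg1-AA gave 5 to 8 higher, 1 to 7 lower and medians of -0.05 to 0.24. The strains under rapamycin gave 19 to 26 higher and 0 to 2 lower, the strains under DMSO 23 to 31 higher and 1 to 2 lower, and the difference of the responses 0 to 2 and 0 to 4. Leaving out the lone ceg1-AA/xrn1D DMSO library leaves no value for the comparisons that use it. Fewer samples are fitted in each case, and the numbers called moved among members and among all genes tested. The replicate number marks no shared source in the labels, and the deviations of same-numbered libraries correlated at 0.13, -0.15 and -0.03. With a replicate block, rapamycin in ceg1-AA gave 6 members higher and 3 lower, against 1338 and 1293 of all genes. The strains under rapamycin gave 30 and 3, against 1174 and 1259. The strains under DMSO gave 20 and 1, against 961 and 1003. Rapamycin in ceg1-AA/xrn1D gave 0 and 0, as it did over all genes. The difference of the responses gave 0 and 0, against 531 and 394.

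For the 27 named pairs of gene and comparison that were called, 318 values were computed over 15 settings. Of these 242 kept direction and call, 74 kept direction and lost the call, 36 of them with a library left out, and 2 turned: MRPL9 with rapamycin in ceg1-AA, at 0.072 with library totals alone and 0.14 with limma. The cause was not tested. Depth limits the lowest members, which had as few as 2 counts in a library.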
